A study of Mus musculus with 6 samples.

Results

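The transporter genes described here were 53 of the 19938 genes measured, chosen by gene symbol as the members of 6 solute carrier families that move amino acids, neurotransmitters and related small molecules across membranes. They were 2 genes of the Slc3 family, 18 of Slc6, 15 of Slc7, 4 of Slc36, 11 of Slc38 and 3 of Slc43. RNA came from cells of C57BL/6J mice separated by reporter fluorescence on a cell sorter. One group held GFP+ cortical neural progenitors and the other their RFP+ neuronal progeny, with 3 samples of each and 1 Affymetrix whole-transcript array per sample. The dual reporter is common to both groups. The labels place the GFP+ cells in the cortex but give the RFP+ cells as brain with no region, so cell stage and any difference of region cannot be told apart. Age, the promoters behind the reporters and any pooling of animals are not given in the sources used here, nor is whether replicates were separate animals, so p-values measure the spread between these samples, which may be technical.

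Cells cannot make every amino acid, and those that they use for protein, nucleotides, glutathione and transmitters cross the membrane through carriers. Slc7 light chains pair with a heavy chain of the Slc3 family and exchange one amino acid for another. Slc38, Slc36 and Slc6 carriers use ion gradients, and in the brain Slc6 members also clear GABA, glycine and monoamines released by neurons.

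Intensities are the values deposited for each probe set on a linear scale. Differences are GFP+ minus RFP+ means of log2(intensity + 16), given with the standard error (SE), so that a positive difference means higher in GFP+ progenitors. Folds come from the same offset values, so for dim genes they fall short of the ratio of intensities. Adjusted p-values are from limma over all 19938 genes with Benjamini-Hochberg adjustment, and genes under 0.05 are said to have passed. The 1015 olfactory receptor genes served as a guide to background. A gene whose group mean lay under the 95th percentile of their group means (211 in GFP+ and 206 in RFP+) is called near background in that group. Probe sets differ in how well they bind, so levels are compared between groups and not between genes.

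The labelled cell types were borne out by markers. All 10 progenitor markers were higher in GFP+ arrays (median difference 2.36) and all 10 neuron markers in RFP+ arrays (median -1.38). Markers of other cells also parted the groups. Of 14 endothelial markers, 13 were higher in GFP+, and their summed intensity was 3932 to 9647 on GFP+ arrays against 1510.1 to 1776 on RFP+ arrays. The remaining one, Slco1a4, was near background in both groups. GFP+ replicate 1 stood apart, with the endothelial list at -1.37 from the other GFP+ arrays (median log2 difference over its genes). On the same array the microglial list lay at 0.50, the oligodendrocyte lineage list at 0.25, the astrocyte list at 0.23 and the neuron list at -0.22. In GFP+ 9 of the 10 microglial markers were near background, so their shift is mostly one of background-level readings. Of 10 mural cell markers 8 were higher in GFP+ (summed intensity 6777 to 8460.4 against 1323 to 1471), as were 5 of 8 meningeal and 4 of 6 oligodendrocyte lineage markers. Of 6 astrocyte markers 3 were higher in GFP+ (Aldoc, Aldh1l1 and Aqp4, the last near background in both groups). Gfap, S100b and Gjb6 did not pass. The summed intensity of the list was 6378 to 8716 in GFP+ against 1911 to 2238 in RFP+. Aldoc alone averaged 4908 in GFP+ and 514 in RFP+. No microglial marker was higher in GFP+, and 1 of 10 was lower (summed intensity 1210.4 to 1881 in GFP+ against 1637 to 1861 in RFP+). Among inhibitory neuron markers 2 of 7 were higher in GFP+, and their sum ranged widely over RFP+ arrays, at 4564 to 10599. The choroid plexus marker Ttr read 1204 on RFP+ replicate 3 and at most 61.8 on the other 5 arrays. In sorted populations measured in bulk, fewer cells of a type and less RNA per cell cannot be told apart.

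Of the 53 transporter genes 17 passed, 10 of them higher in GFP+ progenitors and 7 higher in RFP+ neurons. That is 32.1% of them, against 30% of all genes tested. In GFP+ the share was 18.9% against 13.7%, and in RFP+ 13.2% against 16.2%. These shares lay near those of all genes, and the median difference of the 53 genes was -0.02, against -0.08 over all genes. Of those that passed, 6 genes reached 2-fold or more in GFP+ (6.99% of all genes did) and 5 in RFP+ (5.97% of all genes did). The 3 GFP+ arrays did not overlap the 3 RFP+ arrays for any of the 17. The same held for 5844 of the 5973 genes that passed among all genes tested. Counting genes that passed or not, 12 of the 53 lay wholly higher in GFP+ and 11 wholly higher in RFP+, where 19.9% and 24.1% of all genes did so. Near background in both groups were 21 of the 53, of which 1 (Slc7a3) passed.

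**Figure D1:**
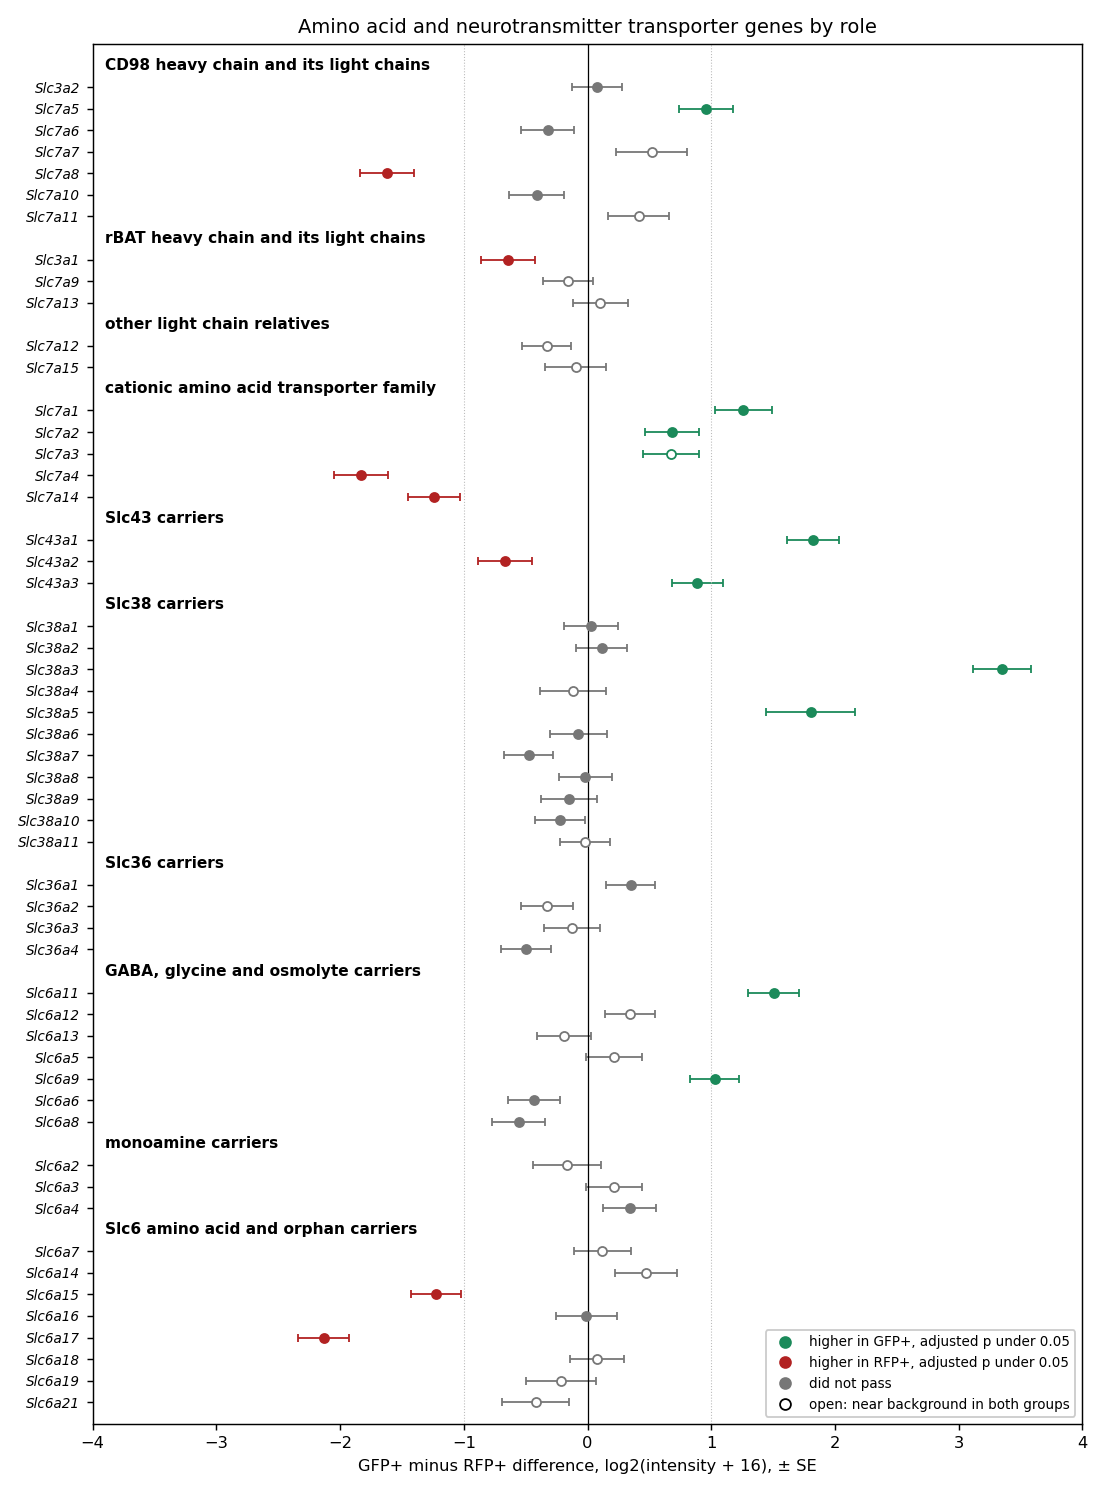
Difference in log2(intensity + 16), GFP+ minus RFP+, with its SE for each of the 53 transporter genes, grouped by role (3 arrays per group). Green marks the 10 genes higher in GFP+, red the 7 higher in RFP+, grey those that did not pass, and open symbols the 21 genes near background in both groups.

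The largest difference of the set belonged to Slc38a3, which encodes a sodium-coupled glutamine carrier known from astrocytes. Its intensity was 1382, 2329 and 1912 on the GFP+ arrays, against 123, 195 and 186 on the RFP+ arrays. All GFP+ values lay far above all RFP+ values, and the RFP+ mean was near background. The difference was 3.35 ± 0.23, or 10.2-fold (adjusted p = 3.34e-09). Slc38a5, a related glutamine and histidine carrier, read 169, 684 and 728 in GFP+ against 92.9, 137 and 119 in RFP+. The groups did not overlap, but GFP+ replicate 1 lay closer to the RFP+ arrays than to the other GFP+ arrays. The difference was 1.81 ± 0.36 (adjusted p = 6.36e-04), and with an intensity trend and robust moderation it no longer passed (adjusted p = 0.105). On GFP+ replicate 1 Slc38a5 lay -1.97 from the other GFP+ arrays on the log2 scale, and the endothelial list lay -1.37 from them. Without that array the difference of Slc38a5 was 2.46 and that of Slc38a3 was 3.55. The part of endothelial cells in these differences was not tested.

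The other 9 Slc38 genes did not pass. Slc38a2, a neutral amino acid carrier known to be induced by amino acid shortage, read 5678, 7347 and 8229 in GFP+ against 6088, 6479 and 6864 in RFP+. Slc38a1, a glutamine carrier of neurons, read 4219, 3902 and 5744 in GFP+ against 3833, 4368 and 5346 in RFP+. For both genes the arrays of the groups interleaved. The 95% intervals of their differences ran from -0.32 to 0.55 for Slc38a2 and from -0.43 to 0.48 for Slc38a1. Changes within those bounds are compatible with these values. A second probe set of Slc38a1 read 1863, 1416 and 1441 in GFP+ against 2535, 2013 and 2224 in RFP+. Its groups did not overlap, and its difference of -0.52 did not pass (adjusted p = 0.0643, limma over all single-gene probe sets). The difference between the probe sets was not tested. Slc38a9, a lysosomal arginine sensor that acts on mTORC1, had differences of -0.15 and -0.45 on its 2 probe sets, neither of which passed. Slc38a7, a lysosomal glutamine exporter, averaged 434 ± 20.1 in GFP+ and 612 ± 76.4 in RFP+ (SD, n = 3 each), and missed the threshold in limma (adjusted p = 0.0793). It passed when the replicate number entered the fit as a block (adjusted p = 0.0378).

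The heavy chain CD98, encoded by Slc3a2, carries most of the Slc7 light chains to the cell surface. Its intensity was 2506, 2741 and 3310.4 in GFP+ against 2647, 2472 and 2971 in RFP+, values that overlap throughout. The difference was 0.07, with a 95% interval from -0.35 to 0.50. Among its 6 light chain genes 1 was higher in GFP+ and 1 higher in RFP+. Slc7a5, the large neutral amino acid exchanger LAT1 that supplies leucine and is abundant at the blood-brain barrier, read 2534, 3261 and 4248 in GFP+ against 1633, 1866.5 and 1546 in RFP+. Every GFP+ array lay above every RFP+ array (difference 0.96 ± 0.22, 1.94-fold, adjusted p = 0.00217). Without GFP+ replicate 1, the GFP+ array on which the endothelial list was lowest, the difference was 1.14. The part of endothelial cells in the difference of Slc7a5 was not tested. Slc7a8, the related exchanger LAT2, read 129, 206 and 185 in GFP+ against 592, 611 and 477 in RFP+. The GFP+ mean was near background, and the difference was -1.62 ± 0.22, or 3.08-fold higher in RFP+ (adjusted p = 7.33e-06).

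**Figure D2:**
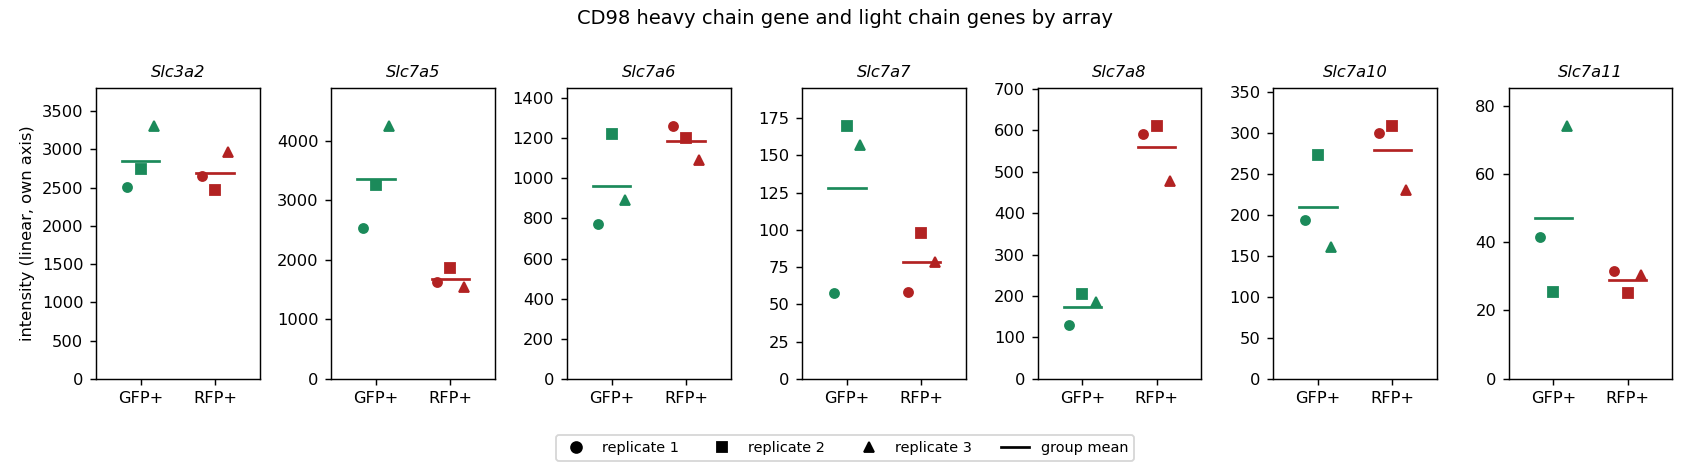
Intensity of Slc3a2 and 6 light chain genes on each array (linear axes that start at 0 and differ between genes; symbols are replicates, lines are group means of 3 arrays). Slc7a5 was higher on all 3 GFP+ arrays and Slc7a8 on all 3 RFP+ arrays, while the Slc3a2 arrays interleaved.

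The other 4 light chain genes did not pass. Slc7a6, which exchanges cationic for neutral amino acids, averaged 961 ± 232 in GFP+ and 1186 ± 86.3 in RFP+ (SD, n = 3 each). Slc7a7, its relative known from macrophages and epithelia, read 57.4, 169.8 and 157 in GFP+ against 58.5, 97.7 and 78.7 in RFP+, with GFP+ replicate 1 at the level of the RFP+ arrays. Without that array the difference was 0.95 and passed in limma (adjusted p = 0.00608). Slc7a10, a carrier of small neutral amino acids including D-serine, had a difference of -0.41 ± 0.22. Slc7a11, the cystine and glutamate exchanger that supplies cystine for glutathione, was near background throughout at 41.5, 25.3 and 74.1 in GFP+ against 31.5, 25.1 and 30.4 in RFP+. Its difference of 0.41 did not pass (adjusted p = 0.215), though it did without GFP+ replicate 2 (adjusted p = 0.0441).

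The promoter of Slc7a11 is shown because it is a textbook target of the amino acid response, in which the factor ATF4 binds elements of the form TGATGNAA. The window runs from 250 bases before the RefSeq start site to 50 after it, on the minus strand at chr3:50443564-50443863 (GRCm38.p6). Capitals mark matches to TGATGNAA on either strand.
Slc7a11: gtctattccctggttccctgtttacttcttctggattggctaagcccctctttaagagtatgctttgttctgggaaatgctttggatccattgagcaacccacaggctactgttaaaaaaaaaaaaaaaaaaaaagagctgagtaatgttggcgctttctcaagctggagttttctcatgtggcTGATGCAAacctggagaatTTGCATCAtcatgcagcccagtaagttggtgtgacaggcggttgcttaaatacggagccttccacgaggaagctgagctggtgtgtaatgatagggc
It held 2 matches that face each other and do not overlap, beginning 66 and 47 bases before the start. RefSeq windows of this kind were at hand for 37 of the 53 genes, 58 windows in all. A match was found in 4 of the 58, which belonged to Slc7a11, Slc7a7 and Slc6a21, and in 3.97% of the 32851 windows of all genes. All 3 genes were near background in both groups.

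Slc3a1, the heavy chain rBAT of the cystine carrier of kidney and gut, read 255, 350.0 and 254 in GFP+ against 511, 503 and 356 in RFP+. The groups came within a few units of each other, with a difference of -0.64 ± 0.22 (adjusted p = 0.0315). The call was lost when GFP+ replicate 1 or 3 or RFP+ replicate 1 or 2 was left out (adjusted p up to 0.132) and with an offset of 1 (0.0533). Its partners Slc7a9 and Slc7a13 did not pass and were near background in both groups, as were the light chain relatives Slc7a12 and Slc7a15.

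All 5 genes of the cationic amino acid transporter family passed, where 30% of all genes did, and in both directions. Slc7a1, the widely expressed arginine and lysine carrier CAT1, read 1017, 1625 and 1842 in GFP+ against 531, 684 and 584 in RFP+. GFP+ replicate 1 was the lowest of its group but above every RFP+ array, and the difference was 1.26 ± 0.23, or 2.39-fold (adjusted p = 2.74e-04). On that array Slc7a1 lay -0.76 from the other GFP+ arrays. Slc7a2, an arginine carrier known from macrophages and liver, read 185, 256 and 297 in GFP+ against 122, 159 and 155 in RFP+. Slc7a3, a brain form of the family, read 108, 127 and 122 in GFP+ against 91.9, 76.7 and 44.5 in RFP+, near background in both. Their differences were 0.68 ± 0.22 (adjusted p = 0.0222) and 0.67 ± 0.23 (adjusted p = 0.0301). Each of these 2 calls was lost when any 1 of 3 arrays was left out, for Slc7a2 GFP+ replicates 2 and 3 and RFP+ replicate 1 (adjusted p up to 0.115), and for Slc7a3 GFP+ replicates 2 and 3 and RFP+ replicate 3 (adjusted p up to 0.195).

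Slc7a4 and Slc7a14, family members with less settled substrates, were higher in RFP+ neurons. Slc7a4 read 115, 195 and 151 in GFP+ against 628, 549 and 558 in RFP+. Its GFP+ mean was near background and all RFP+ arrays were well above it (difference -1.83 ± 0.22, 3.56-fold higher in RFP+, adjusted p = 1.45e-06). Slc7a14, known from the retina and from lysosomes, read 96.05, 127 and 134 in GFP+ against 284, 351 and 273 in RFP+. It too was near background in GFP+, with a difference of -1.24 ± 0.21 (2.36-fold higher in RFP+, adjusted p = 1.06e-04).

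All 3 Slc43 genes passed, where 30% of all genes did. Slc43a1, the facilitated leucine and phenylalanine carrier LAT3, read 277, 296 and 282 in GFP+ against 62.5, 91.5 and 56.7 in RFP+. The GFP+ arrays lay close together, GFP+ replicate 1 included, and the RFP+ mean was near background. The difference was 1.82 ± 0.21, or 3.54-fold (adjusted p = 1.06e-06). Slc43a3, since described as a purine nucleobase carrier, read 484, 685 and 592 in GFP+ against 277, 326 and 319.6 in RFP+ (difference 0.89 ± 0.21, adjusted p = 0.00245). Slc43a2, the related carrier LAT4, went the other way at 314, 427 and 449 in GFP+ against 528, 735 and 649 in RFP+. Its difference of -0.67 ± 0.22 (adjusted p = 0.0239) no longer passed without GFP+ replicate 1 or without RFP+ replicate 2 or 3 (adjusted p up to 0.110).

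**Figure D3:**
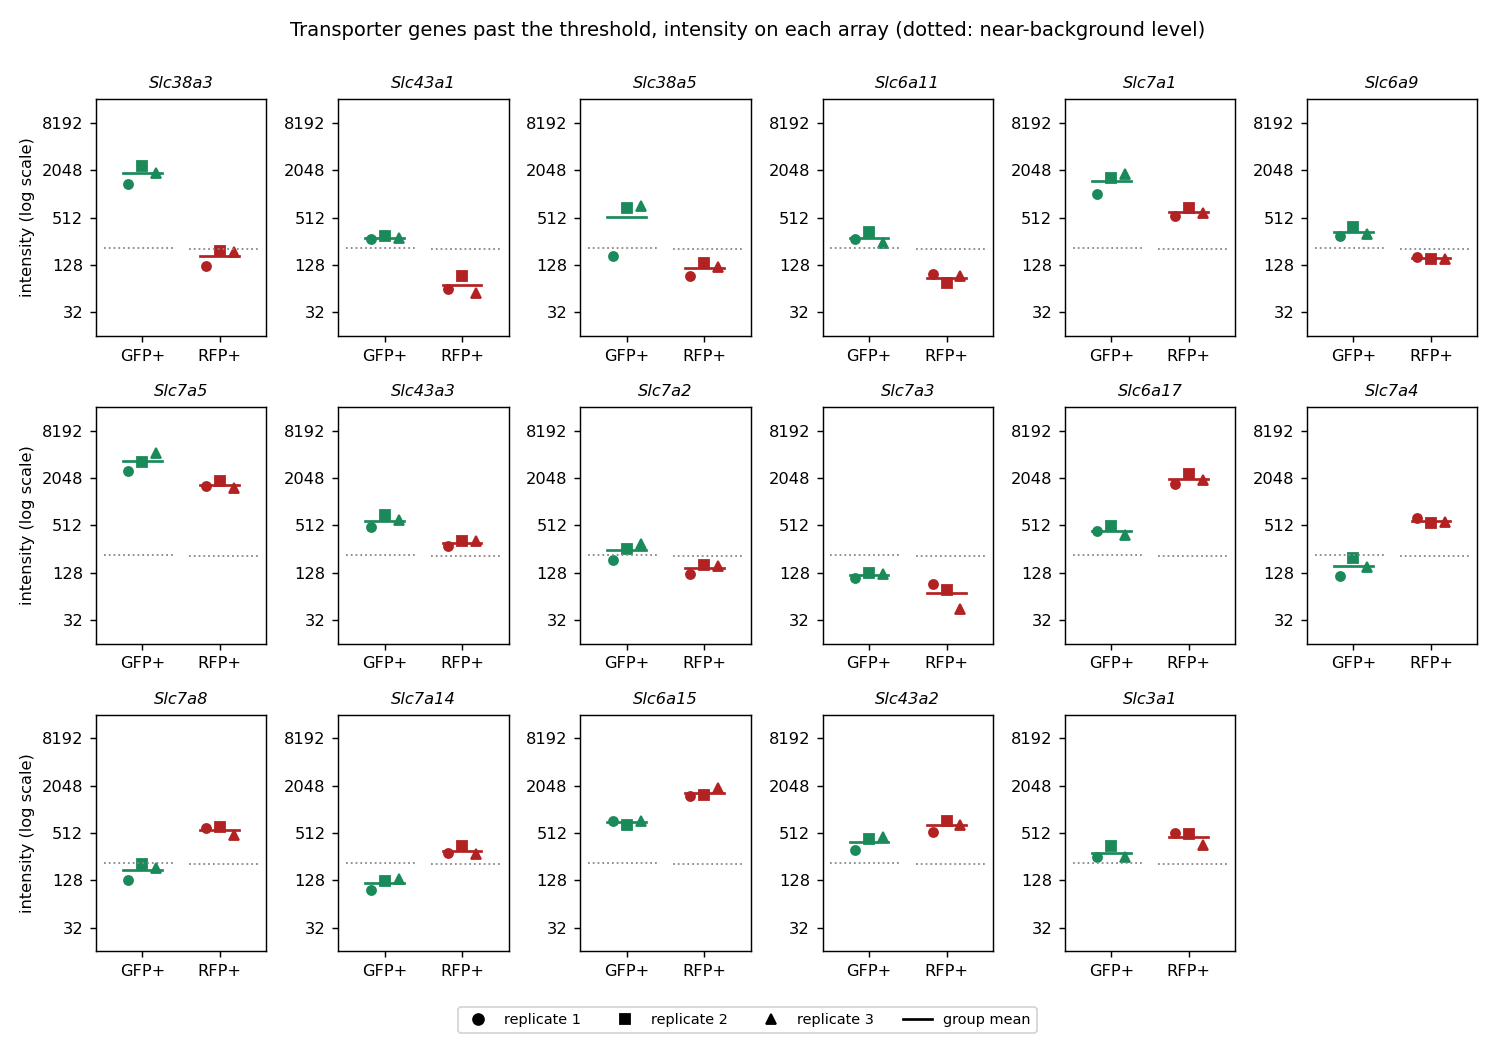
Intensity on each array (log axis) of the 17 transporter genes that passed, the 10 higher in GFP+ first and then the 7 higher in RFP+; symbols are replicates and solid lines group means of 3 arrays. Dotted lines are the near-background levels of 211 in GFP+ and 206 in RFP+, under which 6 of the 10 have their RFP+ mean and 3 of the 7 their GFP+ mean, not counting Slc7a3, which is under both.

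Among the Slc6 carriers of transmitters and osmolytes 2 of 7 passed (28.6%, against 30% of all genes), both higher in GFP+ progenitors. Slc6a11, a GABA carrier known from astrocytes, read 274, 332 and 241 in GFP+ against 97.3, 76.2 and 92.2 in RFP+. All RFP+ arrays were near background, and the difference was 1.51 ± 0.21, or 2.84-fold (adjusted p = 9.71e-06). Slc6a9, the glycine carrier GlyT1 of glia, read 301, 392 and 313 in GFP+ against 161, 153 and 153 in RFP+, again without overlap. Its difference was 1.03 ± 0.20, or 2.04-fold (adjusted p = 5.06e-04). Slc6a12 and Slc6a13, GABA and betaine carriers known from the meninges, and Slc6a5, the neuronal glycine carrier, were near background in both groups, with differences of -0.19 to 0.34. Slc6a6, the taurine carrier, read 979, 958 and 1417 in GFP+ against 1416, 1538 and 1521 in RFP+, with GFP+ replicate 3 reaching the RFP+ arrays. Its difference of -0.43 did not pass (adjusted p = 0.129), though it did without GFP+ replicate 3 (0.0376). Slc6a8, the creatine carrier, averaged 480 ± 85.4 in GFP+ and 713 ± 134 in RFP+ (SD, n = 3 each), and its adjusted p of 0.0568 in limma lay just over the threshold. It passed in 6 of 14 alternatives, among them quantile normalization and median centring (lowest adjusted p = 0.0247).

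The monoamine carrier genes Slc6a2, Slc6a3 and Slc6a4, for noradrenaline, dopamine and serotonin, did not pass. Slc6a4 averaged 337 ± 49.5 in GFP+ and 265 ± 56.1 in RFP+ (SD, n = 3 each), and the means of the other two were near background in both groups.

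Among 8 Slc6 genes of amino acid and orphan carriers, 2 passed (25%, against 30% of all genes), both higher in RFP+ neurons. Slc6a17, which loads neutral amino acids into synaptic vesicles, read 427.5, 504 and 383 in GFP+ against 1716, 2290.1 and 1934 in RFP+. The lowest RFP+ array was far above the highest GFP+ array, for a difference of -2.13 ± 0.21 (4.39-fold higher in RFP+, adjusted p = 1.32e-07). Slc6a15, a leucine and proline carrier of neurons, read 718, 643 and 727 in GFP+ against 1531, 1551 and 1883 in RFP+. Its groups were likewise apart, with a difference of -1.23 ± 0.20 (2.34-fold higher in RFP+, adjusted p = 7.73e-05). The other 6 had differences of -0.42 to 0.47, and 5 of them were near background in both groups.

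No Slc36 gene passed at an adjusted p under 0.05 in limma, and 1 of 4 had an unadjusted p under that value. That gene was Slc36a4, a proline and tryptophan carrier, at 947, 1237 and 1259 in GFP+ against 1587, 1602 and 1642 in RFP+. The groups did not overlap (difference -0.49 ± 0.20, adjusted p = 0.0728), and blocking on the replicate number let it pass (adjusted p = 0.0393). Slc36a1, a proton-coupled carrier of lysosomes and gut, read higher on each GFP+ array, averaging 501 ± 47.2 against 389 ± 25.4 in RFP+ (SD, n = 3 each), with a difference of 0.35 that did not pass (adjusted p = 0.195).

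Promoter windows of 4 genes that differed by 2-fold or more are shown, 2 higher in GFP+ and 2 higher in RFP+, so that the base composition of the start sites of both kinds can be read side by side. Each is given 5′ to 3′ on its gene's strand (GRCm38.p6, RefSeq), from 250 bases before the start to 50 after it, with every CG dinucleotide in capitals. For Slc6a17, which has 2 windows, the one with more CG is given. Slc43a1 lies at chr2:84840073-84840372 on the plus strand, Slc6a11 at chr6:114130991-114131290 on the plus strand, Slc6a17 at chr3:107517969-107518268 on the minus strand and Slc7a8 at chr14:54781837-54782136 on the minus strand.
Slc43a1: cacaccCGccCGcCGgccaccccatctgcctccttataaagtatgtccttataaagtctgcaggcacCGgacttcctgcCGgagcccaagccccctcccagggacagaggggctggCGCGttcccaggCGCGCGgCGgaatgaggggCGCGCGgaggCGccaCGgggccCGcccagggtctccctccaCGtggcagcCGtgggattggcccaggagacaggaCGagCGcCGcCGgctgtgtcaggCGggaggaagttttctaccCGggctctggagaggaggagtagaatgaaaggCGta
Slc6a11: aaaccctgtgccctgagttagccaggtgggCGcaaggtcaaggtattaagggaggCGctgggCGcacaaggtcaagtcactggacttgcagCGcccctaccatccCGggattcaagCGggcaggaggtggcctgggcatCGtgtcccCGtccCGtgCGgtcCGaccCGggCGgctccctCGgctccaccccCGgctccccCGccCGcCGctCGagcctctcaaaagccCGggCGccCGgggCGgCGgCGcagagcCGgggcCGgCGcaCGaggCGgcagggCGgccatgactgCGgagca
Slc6a17: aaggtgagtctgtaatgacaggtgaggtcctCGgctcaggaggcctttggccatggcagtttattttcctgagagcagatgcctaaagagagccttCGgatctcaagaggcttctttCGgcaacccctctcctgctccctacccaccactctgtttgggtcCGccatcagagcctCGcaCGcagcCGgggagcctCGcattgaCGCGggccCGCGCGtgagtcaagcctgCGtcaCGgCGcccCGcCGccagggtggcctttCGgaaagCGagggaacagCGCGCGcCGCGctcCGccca
Slc7a8: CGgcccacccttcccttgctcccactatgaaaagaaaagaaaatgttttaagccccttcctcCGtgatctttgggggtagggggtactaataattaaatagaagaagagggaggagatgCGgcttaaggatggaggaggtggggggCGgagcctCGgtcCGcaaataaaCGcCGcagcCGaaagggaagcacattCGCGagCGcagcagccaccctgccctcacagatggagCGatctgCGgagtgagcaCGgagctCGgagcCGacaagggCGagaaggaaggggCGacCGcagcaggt
These windows held 26, 32, 26 and 20 CG in the order shown, and the other window of Slc6a17 held 3. The 4 genes are a selection. The window of Slc38a5, also higher in GFP+ by 2-fold or more, held 10 and is not shown. Slc38a3, Slc7a5 and Slc7a4 were among the genes without a window. The median was 10 over the 58 windows of the transporter genes and 7 over the 32851 windows of all genes. Taking each gene's window with the most CG, the 5 genes higher in GFP+ that had one held 10 to 32 (median 26), the 5 higher in RFP+ held 7 to 33 (median 20), and 27 that did not pass held 1 to 42 (median 13). Both directions thus covered much the same range of CG counts.

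Position on the chromosome was another feature that the choice of genes did not use. In the RefSeq annotation of GRCm38.p6, 7 pairs of the 53 genes were next to each other with no other protein-coding gene between them, among them Slc38a1 with Slc38a2, Slc6a12 with Slc6a13 and Slc36a1 with Slc36a2. These pairs covered 12 genes, and neither gene of any pair passed, where 30% of all genes did. Of the 12 genes 8 were near background in both groups.

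Many transporter genes read lower on GFP+ replicate 1 than on the other GFP+ arrays, whichever way they differed between the groups. Among the GFP+ arrays it had the least endothelial signal, and the part of endothelial cells in these readings was not tested. On the log2 scale the shift of that array was below 0 for 40 of the 53 genes (median -0.17). Over all genes it was below 0 for 10713 of 19938 (median -0.03). Of the transporter genes, the shift was below 0 for all 10 higher in GFP+ (median -0.46) and for 6 of the 7 higher in RFP+ (median -0.39). It was also below 0 for 24 of the 36 that did not pass (median -0.09). Of all genes tested, it was below 0 for 1584 of the 2740 higher in GFP+ (median -0.055). The same held for 2102 of the 3233 higher in RFP+ (median -0.11). Among genes higher in GFP+ it was -1.97 for Slc38a5, -0.76 for Slc7a1, -0.60 for Slc38a3 and -0.55 for Slc7a5, but -0.06 for Slc43a1 and -0.04 for Slc6a11. Among genes higher in RFP+ it reached -0.54 for Slc7a8 and -0.52 for Slc7a4, and among those that did not pass -1.29 for Slc7a7 and -0.60 for Slc6a18. Without that array 11 transporter genes were higher in GFP+ and 5 in RFP+, and over all genes 2546 and 2713, against 2740 and 3233 with it. The transporter genes whose call changed were Slc7a7, which passed, and Slc3a1 and Slc43a2, which did not.

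**Figure D4:**
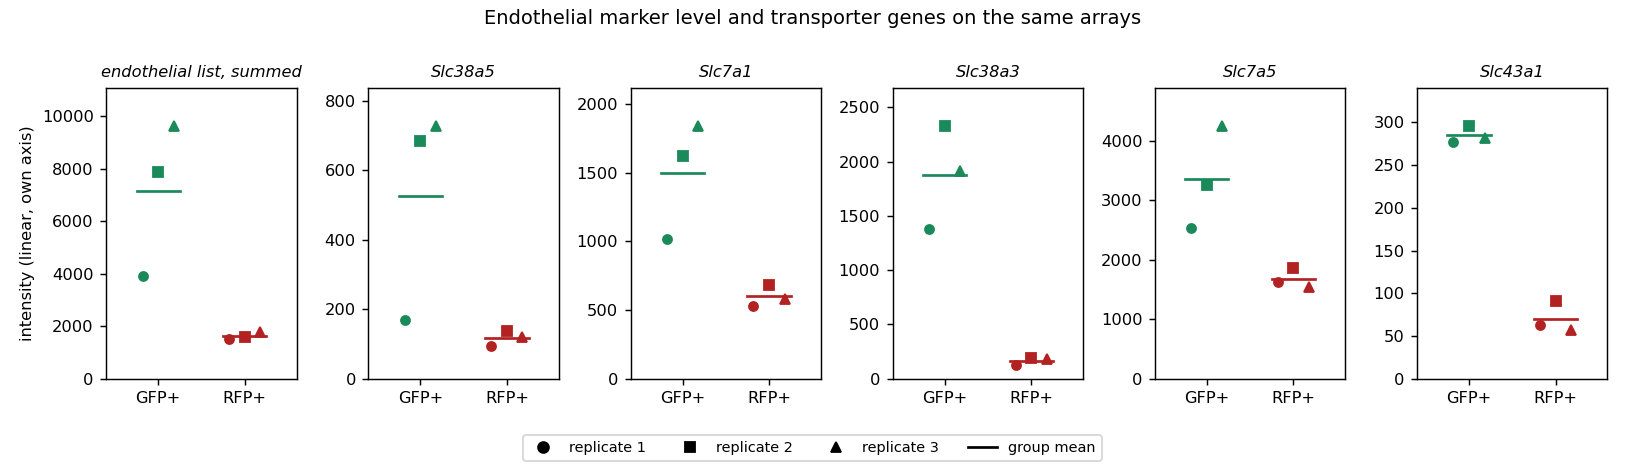
Summed intensity of 14 endothelial markers and intensity of 5 transporter genes on each array (linear axes that start at 0 and differ between panels; symbols are replicates, lines are group means of 3 arrays). GFP+ replicate 1 was the lowest GFP+ array for the endothelial sum (3932) and for each of the 5 genes, by a small margin for Slc43a1 (277 against 282 and 296). The 5 genes are a selection. For Slc6a11, not shown, GFP+ replicate 3 was the lowest (241). Slc7a8 and Slc7a4, higher in RFP+ and not shown, were also lowest on GFP+ replicate 1 (129 and 115). The part of endothelial cells in these values was not tested.

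Genes around these carriers were read from 4 lists of related functions. Of all genes tested 13.7% were higher in GFP+ and 16.2% in RFP+, with a median difference of -0.08. Of 26 other carriers of amino acids and transmitters, 6 were higher in GFP+ and 6 higher in RFP+ (23.1% each, median difference 0.02). In GFP+ the largest were Slc1a3, a glutamate carrier of radial glia and astrocytes (3.03), Slc25a13, a mitochondrial aspartate and glutamate carrier (2.57), and the glutamine carrier Slc1a5 (1.37). Slc1a1, the glutamate carrier of neurons (-2.60), the vesicular glutamate carrier Slc17a7 (-2.05) and the mitochondrial glutamate carrier Slc25a22 (-1.28) led the other direction.

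Of 23 genes of amino acid synthesis and the amino acid response, 8 (34.8%) were higher in GFP+ and 3 (13%) higher in RFP+. The median difference of the list was 0.30. Phgdh and Psat1, the first enzymes of serine synthesis, had differences of 2.88 ± 0.21 and 2.36 ± 0.23 (limma adjusted p = 3.96e-09 and 1.64e-07), and the transcription factor gene Atf5 one of 2.09 ± 0.22. Phgdh averaged 964 ± 52.3 in GFP+ and 119 ± 24.5 in RFP+ (SD, n = 3 each), the last near background. Asns, which makes asparagine, went the other way at -1.03 ± 0.21, with Got1 (-0.85) and Chac1 (-0.74), the last near background in both groups.

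No gene of amino acid sensing by mTORC1 passed with a 2-fold difference. Of the 29 on that list, 2 (6.9%) were higher in GFP+ and 4 (13.8%) higher in RFP+ (median -0.11). They were Rragd (0.95) and Sesn2 (0.67) in GFP+, and in RFP+ Wdr59 (-0.74), Fnip2 (-0.66), Nprl2 (-0.66) and Tsc1 (-0.62). Sesn2 was near background in both groups. Of 23 genes of transmitter, glycine, creatine and taurine metabolism, 7 (30.4%) were higher in GFP+ and 2 (8.7%) higher in RFP+ (median 0.42). Gldc, which cleaves the glycine that Slc6a9 carries, averaged 1105 ± 123 in GFP+ and 218 ± 15.7 in RFP+ (SD, n = 3 each; difference 2.26 ± 0.20, limma adjusted p = 4.12e-08). Gatm, the first enzyme of creatine synthesis (1.73), and the GABA enzyme gene Gad2 (0.90) were also higher in GFP+. The mitochondrial creatine kinase gene Ckmt1 (-1.79) and Ado, a thiol oxidase of taurine synthesis (-1.11), were higher in RFP+. Most endothelial and mural markers above were also higher in GFP+. On GFP+ replicate 1 the endothelial list lay at -1.37 from the other GFP+ arrays and the mural list at 0.15. There the other carriers lay at -0.15 and the synthesis and response list at -3.4e-05. The mTORC1 list lay at -0.07 and the list of transmitter, glycine, creatine and taurine metabolism at 0.02. The part of endothelial and mural cells in these lists was not tested.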

How the data were processed

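Total RNA of 6 samples was measured, 1 array each. The intensity values were deposited by the authors as a table of 35557 probe sets; the submitters' processing notes name the Affymetrix Expression Console, and its version, background correction, normalization and summarisation are not given in the sources used here. Array medians were 210.31 to 221.1. The number of arrays, 3 per group, limits the precision.

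A platform annotation gave 1 gene symbol to 21789 probe sets, several to 1621 and none to 12147. Per gene the probe set with the highest mean log2 value over the 6 arrays was kept (19938 genes, none filtered out). The members matched Slc3a1 or Slc3a2, or Slc6, Slc7, Slc36, Slc38 or Slc43 followed by a and digits alone, and 2 of the 53 had more than 1 probe set. The log2(intensity + 16) values, computed here from the deposited intensities, were tested with limma 3.58.1 in R 4.3.3 (lmFit and eBayes, two-sided, all 6 arrays, no covariate). Figures used matplotlib 3.10.9. The fit was tested on simulated data. By rule, every array's value is given for members that passed with at least a 2-fold difference, the 10 with the highest mean and a few listed genes, and of each related list the 3 largest passing genes each way are named; further members' array values, and Tsc1, were added after they were seen. Members and lists were chosen with earlier results of these data known.

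Sample titles carry replicate numbers. Deviations from group means correlated at 0.204, 0.288 and 0.361 between arrays of the same number across genes, and at -0.267 to 0.00422 otherwise, so the numbers were taken to pair the arrays, and the fit with the replicate number as a block was an alternative. Others were quantile normalization, median centring, offsets of 1 and 64, averaging the probe sets of a gene, a filter on the dimmest 30% of genes, an intensity trend with robust moderation, a 2-fold size threshold and leaving out each array in turn.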

Additional observations from a re-analysis of the deposited data

How the results depend on the processing

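Of the 17 genes that passed, 12 passed in all 14 alternatives without a size threshold, and 5 (Slc38a5, Slc3a1, Slc43a2, Slc7a2 and Slc7a3) lost the call in at least 1; Slc7a3 was among the 15 dimmest members taken out by the filter on dim genes. None of the 17 changed direction. Of the 36 that did not pass, 29 passed in none of the alternatives that tested them and 7 (Slc36a4, Slc38a7, Slc6a6, Slc6a8, Slc6a14, Slc7a7 and Slc7a11) passed in at least 1. With a 2-fold threshold 6 members were higher in GFP+ and 5 in RFP+, and 1394 and 1191 of all genes. Over the other alternatives the members higher in GFP+ numbered 8 to 11 and those higher in RFP+ 5 to 10, while all genes numbered 2205 to 3321 and 2303 to 4045. The replicate block gave 10 and 9, adding Slc36a4 and Slc38a7; it changed no other call among members, and over all genes gave 3321 and 4045, against 2740 and 3233 without it. Differences near 0 changed sign without passing: Slc38a1 with median centring (-0.012), with the mean of its probe sets (-0.25) and on leaving out an array (-0.14 to 0.15), Slc38a2 (-0.0022 to 0.26) and Slc3a2 (-0.037 to 0.16) on leaving out an array. Genes near background are limited by signal: their folds depend on the offset.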
